A study of Arabidopsis thaliana with 12 samples.

Results

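The 36 ribosome biogenesis factors described here are Arabidopsis nucleolar and late assembly proteins. Their loci were taken from a fixed list, chosen with earlier results of these data known. All 36 were found among the 33560 annotated loci of the table. They are 15 large-subunit factors of the nucleolus, 7 small-subunit factors, 5 box C/D and 3 box H/ACA proteins, 2 nucleolins and 4 late large-subunit factors. Transcript levels were measured by RNA sequencing. The material was the whole plantlet of ecotype Columbia 0 of Arabidopsis thaliana, with no transgene or mutation named in the labels. Plantlets 14 days old, raised on agar plates at 22 °C in long days, were moved to 0, 4 or 10 °C or stayed at 22 °C. Each temperature had 3 libraries, each from a pool of 10 plantlets. The sample labels give 24 h of cold for every temperature, while the series text names 24, 48 and 72 h. If the longer times went with 4 and 10 °C, the effects of temperature and of duration cannot be told apart. The sources used here do not say which pools shared a chamber run, so p-values measure the spread between these pools.

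Ribosomes are built in the nucleolus, where RNA polymerase I transcribes a long precursor of the ribosomal RNAs. Small nucleolar RNAs guide the chemical modification of that precursor, box C/D particles for methylation and box H/ACA particles for pseudouridine. Assembly factors then fold, cut and trim it while ribosomal proteins join, and the large and small subunits part. Late factors take part in the export of the large subunit through the nuclear pores or act on it in the cytoplasm. In Arabidopsis, loss of several of these factors gives pointed leaves, slow growth or arrest of the female gametophyte, and REIL proteins are known for their part in growth in the cold.

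The libraries held 32870040 to 41683299 estimated counts, of which 28934654 to 37092964 fell on annotated genes. Levels are given as CPM, a gene's counts per 1000000 annotated counts of its library, scaled by TMM factors between 0.792 and 1.19. Of 21293 genes tested, 88.5% differed among the 4 temperatures, so a call alone says little about a list here. Log2 fold changes are cold over 22 °C unless stated otherwise, with the standard error after ±. A gene is called when its adjusted p is under 0.05 (edgeR quasi-likelihood test, Benjamini-Hochberg over all genes tested). Plantlets were whole, so a change of RNA per cell and a change in the make-up of the cells cannot be told apart.

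All 36 factors had their lowest mean at 22 °C (34 with total counts alone and 35 with upper quartile factors), where 31.5% of all tested genes had theirs. At 0 °C, 33 rose, 0 fell and 3 were not called, against a background of 35.5% of all genes called higher and 38.8% called lower. At 4 °C, 34 rose and 0 fell, against 36.3% higher and 37.6% lower. At 10 °C, 35 rose and 0 fell, against 32.4% higher and 32.3% lower. The median log2 fold change of the 36 was 1.75 at 0 °C (1.68 with RRP5 at the lower bound), 2.17 at 4 °C and 1.92 at 10 °C, while that of all genes was -0.07, -0.04 and -0.01. Rises of at least 2-fold that were called numbered 31, 33 and 34 of 36, against 15.9%, 15.2% and 10.5% of all genes. A total of 32 factors (88.9%) were called higher at every cold temperature, as were 20.4% of all genes. The 3 comparisons share the same 22 °C libraries. As the factors were chosen with earlier results of the data known, these counts are a description. With total counts in place of TMM scaling the median of all genes was -0.48, -0.17 and 0.14 at 0, 4 and 10 °C, and the factors called higher numbered 33, 34 and 36.

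At 22 °C the summed factors made up 0.124% of annotated counts, with 0.123% to 0.124% in single libraries. The share reached 0.545% ± 0.00825 in the libraries from 10 °C, 0.472% ± 0.00589 in those from 4 °C and 0.313% ± 0.00228 in those from 0 °C (SD, n = 3), or 4.40, 3.81 and 2.54 times the mean at 22 °C. No library in the cold overlapped the range at 22 °C. These shares are without TMM scaling, in which a larger factor lowers the level. TMM factors were 0.792 to 0.812 at 0 °C, 0.972 to 0.976 at 4 °C, 1.19 at 10 °C and 1.06 to 1.08 at 22 °C. The order of 10 and 4 °C and the size of each ratio thus depend on scaling. The highest mean of a factor lay at 4 °C for 16 of them, at 10 °C for 14 and at 0 °C for 6. Those numbers were 12, 22 and 2 with total counts alone and 16, 16 and 4 with upper quartile factors, so the temperature of the highest mean depended on scaling. Tested over the 4 temperatures together, 34 of 36 differed, the exceptions being RRP5 (adjusted p = 0.0842) and MTR4 (adjusted p = 0.0731) (edgeR quasi-likelihood F test). Per kilobase of mRNA, nucleolin NUC1 was the most abundant at 22 °C, at 92.7 CPM per kb, and FIB1 followed at 73.6. NUC2 stood at 0.566 CPM per kb and RRP5 had no count at 22 °C.

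**Figure D1:**
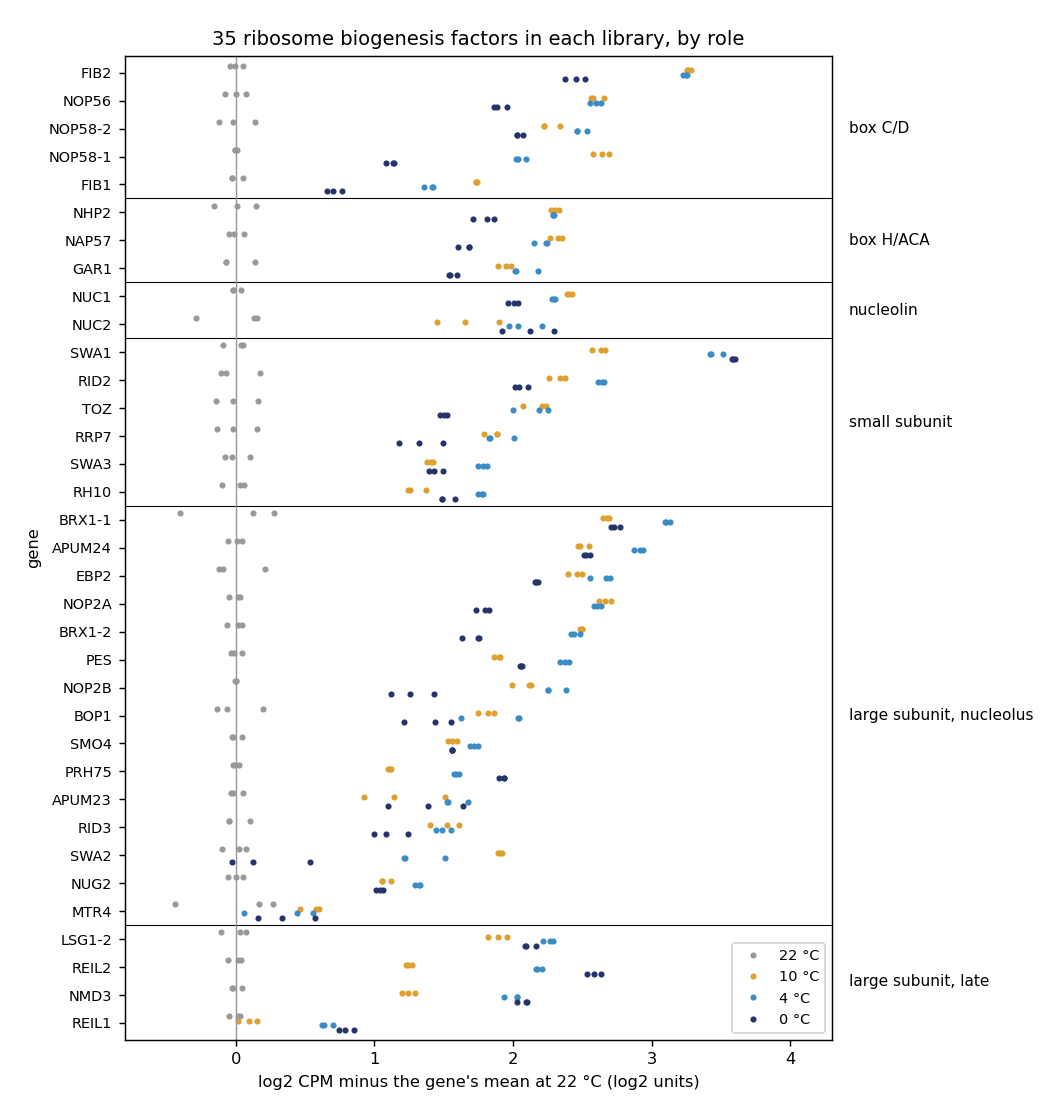
Level of 35 factors in each of the 12 libraries, as log2 CPM minus the gene's mean at 22 °C, grouped by role. Each point is a library, grey at 22 °C, yellow at 10 °C, light blue at 4 °C and dark blue at 0 °C. Points in the cold lie to the right of the grey ones for most genes, and MTR4, SWA2 at 0 °C and REIL1 at 10 °C overlap them. RRP5 is left out because it has no count at 22 °C.

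Promoters of plant ribosome genes are known for 2 short elements, the telo-box and site II. Both strands of the 250 bases before and 50 bases from each annotated start were searched for AAACCCTA (the telo-box) and for TGGGCC or TGGGCT (site II), in the RefSeq annotation of TAIR10.1. Matches may overlap each other by a few letters, and each is counted. A telo-box stood in 18 of the 36 factors' windows (50%), against 6.25% of the windows of 27438 protein-coding genes. Site II stood in 25 windows (69.4%), against 21.7%. Both stood in 14 (38.9%), against 2.2%, and 20 windows (55.6%) held at least 2 site II matches, against 13.6%. All 5 box C/D genes and both nucleolin genes held a telo-box, and 1 of the 4 late large-subunit genes did. The 22 telo-box matches centred near the annotated start, with a median position of 3, and the 55 site II matches lay further up, at a median of -56, where position 0 is the first transcribed base. Windows of APUM24, RRP7, SWA3, NHP2, LSG1-2, EBP2 and NMD3 held neither motif by these letters. The motifs were not particular to the 36. In 33 cytosolic ribosomal protein genes, a telo-box stood in 45.5% of windows, site II in 84.8% and both in 39.4%. In 29 other biogenesis factors these shares were 41.4%, 55.2% and 27.6%. A match is a string of letters and does not show that a protein binds there.

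The 250 bases before the annotated start of 3 factors rich in matches are given because they show how the motifs are spaced. All 3 genes rose at each cold temperature. Capitals mark the telo-box or site II on either strand, so a telo-box may read TAGGGTTT, and site II may read GGCCCA or AGCCCA. None of these stretches overlaps an mRNA exon of a neighbouring gene. Those of NOP56 and BRX1-2, which also hold many matches, do, and are not printed.
NUG2, chr1:19737155-19737404, plus strand: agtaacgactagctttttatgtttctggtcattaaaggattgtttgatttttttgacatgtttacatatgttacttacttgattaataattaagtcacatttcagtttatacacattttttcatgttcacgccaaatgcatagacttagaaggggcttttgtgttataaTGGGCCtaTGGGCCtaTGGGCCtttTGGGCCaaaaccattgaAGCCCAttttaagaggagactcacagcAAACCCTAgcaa
REIL2, chr2:10402935-10403184, minus strand, written in the direction of the gene: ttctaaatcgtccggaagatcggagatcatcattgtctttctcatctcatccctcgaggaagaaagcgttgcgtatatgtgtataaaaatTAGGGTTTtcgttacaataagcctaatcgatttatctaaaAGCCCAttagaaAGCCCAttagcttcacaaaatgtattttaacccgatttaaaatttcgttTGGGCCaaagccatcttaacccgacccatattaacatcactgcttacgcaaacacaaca
FIB1, chr5:21293897-21294146, plus strand: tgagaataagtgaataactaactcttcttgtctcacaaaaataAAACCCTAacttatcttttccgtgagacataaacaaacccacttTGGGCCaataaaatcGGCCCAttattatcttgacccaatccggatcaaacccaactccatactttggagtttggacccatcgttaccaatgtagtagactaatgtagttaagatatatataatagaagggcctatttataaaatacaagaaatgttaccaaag
In NUG2, 5 site II matches stand between -81 and -39, and the telo-box lies at -12, next to the start. REIL2 has its telo-box at -160, upstream of its 3 site II matches at -120, -108 and -59. FIB1 has site II at -163 and -148 and a telo-box at -207, and its second telo-box at position 3 lies past the printed bases.

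**Figure D2:**
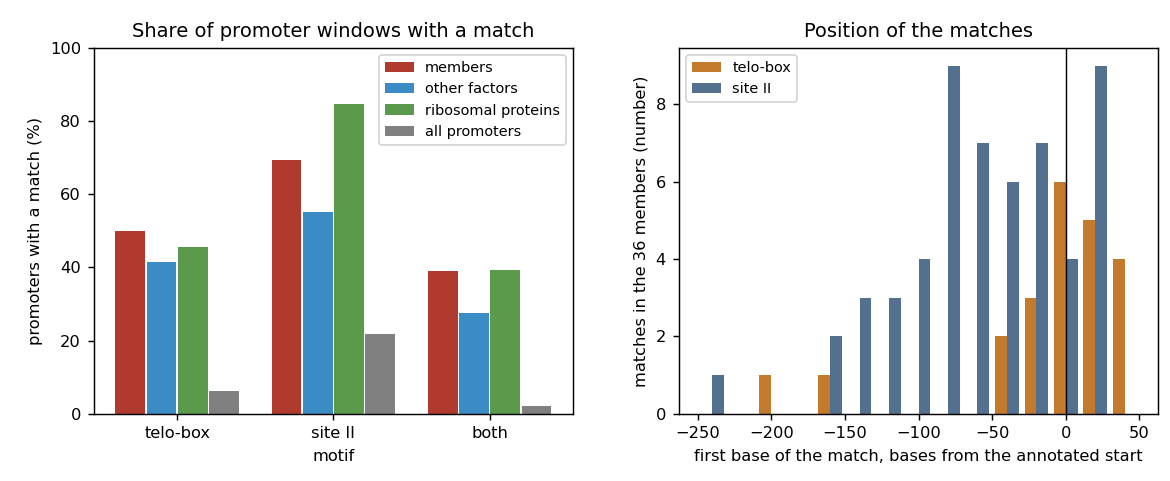
Left, share of promoter windows with a telo-box, a site II or both (percent), for the 36 factors, 29 other biogenesis factors, 33 cytosolic ribosomal protein genes and 27438 protein-coding genes. Right, number of matches in the 36 factors by distance of the first base from the annotated start, in bins of bases. Telo-boxes gather at the start and site II matches upstream of it.

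The box C/D and H/ACA proteins, the cores of the guide particles, rose at every cold temperature, all 8 of 8. FIB2 (AT4G25630), a fibrillarin and the methyltransferase of box C/D particles, stood at 19.4, 19.9 and 20.8 CPM at 22 °C. It reached 192, 195 and 193 CPM at 10 °C, 188, 192 and 191 at 4 °C and 104, 115 and 109.8 at 0 °C. The groups did not overlap, and the log2 fold changes were 3.27 ± 0.042 at 10 °C, 3.24 ± 0.042 at 4 °C and 2.45 ± 0.041 at 0 °C (adjusted p = 2.19e-14, 5.51e-15 and 4.43e-14, edgeR). The other fibrillarin, FIB1 (AT5G52470), went from 99.5, 99.8 and 106 CPM at 22 °C to 340, 338 and 338 at 10 °C. It stood at 261, 273 and 271 CPM at 4 °C and at 160.5, 173 and 165 at 0 °C. FIB1 was thus higher in each cold library than in any at 22 °C, by 1.74 ± 0.035, 1.40 ± 0.035 and 0.71 ± 0.035 at 10, 4 and 0 °C. NOP56 (AT1G56110), a scaffold protein of the particle, rose by 2.60 ± 0.045 at both 10 and 4 °C and by 1.90 ± 0.045 at 0 °C. Its paralogous scaffolds NOP58-1 (AT5G27120) and NOP58-2 (AT3G05060) rose by 2.64 ± 0.039 and 2.26 ± 0.058 at 10 °C and by 1.12 ± 0.039 and 2.04 ± 0.059 at 0 °C. NOP58-1 held 30.5, 30.9 and 30.5 CPM at 22 °C, 183, 198 and 191 at 10 °C, 124, 126 and 131 at 4 °C and 67.2, 67.6 and 64.8 at 0 °C. NOP58-2 held 31.3, 29.1 and 34.8 CPM at 22 °C, 148, 160.4 and 148 at 10 °C, 174, 183 and 174 at 4 °C and 133, 129 and 129 at 0 °C. Neither gene overlapped 22 °C in the cold. NOP58-1 stood highest at 10 °C, while NOP58-2 was higher at 4 than at 10 °C by 0.22 ± 0.054, a difference that was -0.07 with total counts alone and 0.10 with upper quartile factors, neither of them called.

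Of the H/ACA proteins, NHP2 (AT5G08180) held 24.7, 22.0 and 27.1 CPM at 22 °C against 119, 124 and 121 at 10 °C. It stood at 119.8, 121 and 120.0 CPM at 4 °C and at 86.4, 89.2 and 80.6 at 0 °C, log2 fold changes of 2.30 ± 0.063, 2.29 ± 0.063 and 1.80 ± 0.063. GAR1 (AT3G03920), which binds the catalytic subunit, held 39.5, 39.6 and 45.8 CPM at 22 °C and 161, 165 and 154 at 10 °C. It reached 169, 168 and 188 CPM at 4 °C and 121, 125 and 121 at 0 °C, rises of 1.94 ± 0.061, 2.07 ± 0.061 and 1.56 ± 0.061. NAP57 (AT3G57150), the pseudouridine synthase itself, rose by 2.31 ± 0.042, 2.21 ± 0.042 and 1.66 ± 0.042. Among the cold temperatures all 3 were lowest at 0 °C. Counting of NHP2, FIB1 and FIB2 may include reads of small nucleolar RNA genes within them on the same strand.

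Nucleolins bind ribosomal DNA and the RNA precursor. NUC1 (AT1G48920) held 191, 191 and 199 CPM at 22 °C, 1026, 1038 and 1014 at 10 °C, 940.0, 955 and 950.3 at 4 °C and 755, 793 and 777 at 0 °C. It rose by 2.40 ± 0.028, 2.29 ± 0.028 and 2.00 ± 0.027. NUC2 (AT3G18610) stood at 1.32, 1.30 and 0.965 CPM at 22 °C, 3.25, 3.75 and 4.45 at 10 °C, 5.53, 4.89 and 4.68 at 4 °C and 4.51, 5.18 and 5.86 at 0 °C. Its groups also did not overlap with 22 °C, and it rose by 1.67 ± 0.17, 2.07 ± 0.17 and 2.11 ± 0.17. NUC1 was lower at 4 and 0 °C than at 10 °C (-0.11 ± 0.026 and -0.40 ± 0.026). NUC2 was called higher there (0.40 ± 0.15 and 0.44 ± 0.16), but it was at 0.11 and -0.12 with total counts alone and at 0.28 and 0.23 with upper quartile factors, with no call under either. NUC2's call of 4 against 10 °C also ended with the replicate block (adjusted p = 0.0612, edgeR), with no filter, with DESeq2 and without replicate 1 or 2 at 4 or at 10 °C, and that of 0 against 10 °C ended without replicate 3 at 0 °C or replicate 1 or 2 at 10 °C.

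Among the 7 small-subunit factors, 6 rose at every cold temperature, and RRP5 had counts in the cold only. SWA1 (AT2G47990), a WD-repeat protein of the small-subunit processome, moved by the most, from 9.15, 9.23 and 8.34 CPM at 22 °C to 108, 107 and 106 at 0 °C. It stood at 95.3, 102 and 95.8 CPM at 4 °C and at 52.8, 56.3 and 55.3 at 10 °C, rises of 3.58 ± 0.049, 3.45 ± 0.048 and 2.62 ± 0.048 at 0, 4 and 10 °C. SWA1 overlaps annotated genes on the other strand, as do 11 of the 36, by up to 627 bases in SWA3, and the sources do not give whether counting used strand. RH10 (AT5G60990), a helicase of 18S RNA maturation, moved by the least of the 6 at 4 and 10 °C. It held 15.6, 14.0 and 15.3 CPM at 22 °C, 35.3, 38.7 and 35.7 at 10 °C, 51.5, 51.3 and 50.2 at 4 °C and 44.8, 42.05 and 42.03 at 0 °C. Its rises were 1.29 ± 0.054, 1.77 ± 0.055 and 1.52 ± 0.055 at 10, 4 and 0 °C. RID2 (AT5G57280), a putative methyltransferase, rose by 2.32 at 10 °C, 2.64 at 4 °C and 2.05 at 0 °C, and TOZ (AT5G16750), another WD-repeat protein, by 2.17, 2.15 and 1.50. SWA3 (AT1G16280), a DEAD-box helicase, rose by 1.40, 1.78 and 1.44 and RRP7 (AT5G38720) by 1.85, 1.89 and 1.34 (standard errors 0.058 to 0.094 for these 4).

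RRP5 (AT3G11964), which in yeast takes part in the cuts that separate the subunits, had 0 counts in each library at 22 °C. Its counts were 14, 0 and 0 at 0 °C, 0, 16 and 25 at 4 °C and 43, 71 and 0 at 10 °C. Setting each 22 °C library at a floor of 3 counts, the mean level in the cold was 2.25-fold higher at 0 °C, 5.18-fold at 4 °C and 11.1-fold at 10 °C. These are bounds for the 22 °C side alone, and the mean at 0 °C rests on 1 library. That floor covers counting error only, 4 of the 9 cold libraries were at 0 as well, and the call at 10 °C (adjusted p = 0.0262, edgeR) rests on 2 of 3 libraries. At 0 and 4 °C RRP5 was not called (adjusted p = 0.175 and 0.0653). Reads of the locus may also have been counted on assembled transcripts, which have no map to loci here, and this was not tested, so these zeros and bounds concern the annotated transcript alone.

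Of the 15 large-subunit factors of the nucleolus, 13 rose at 0 °C, 14 at 4 °C and all 15 at 10 °C. BRX1-1 (AT3G15460), a relative of yeast Brx1, held 3.73, 4.15 and 2.58 CPM at 22 °C, 22.0, 22.2 and 21.5 at 10 °C, 29.3, 30.1 and 29.5 at 4 °C and 22.4, 23.4 and 22.8 at 0 °C. It rose by 2.64 ± 0.11, 3.08 ± 0.11 and 2.70 ± 0.12. Its paralog BRX1-2 (AT1G52930) held 14.1, 13.1 and 13.9 CPM at 22 °C, 77.4, 77.5 and 76.7 at 10 °C, 74.3, 76.7 and 73.4 at 4 °C and 46.0, 46.2 and 42.5 at 0 °C. The rises of BRX1-2 were 2.50 ± 0.045, 2.45 ± 0.045 and 1.71 ± 0.046. NOP2A (AT5G55920) and NOP2B (AT4G26600) encode putative RNA cytosine methyltransferases. NOP2A went from 21.0, 22.0 and 22.1 CPM at 22 °C to 133, 142 and 138 at 10 °C, 130.1, 134 and 132 at 4 °C and 72.0, 77.0 and 75.4 at 0 °C. NOP2B went from 7.74, 7.80 and 7.81 CPM at 22 °C to 34.2, 31.1 and 33.7 at 10 °C, 40.7, 37.1 and 37.2 at 4 °C and 16.9, 18.6 and 21.0 at 0 °C. NOP2A rose by 2.66 ± 0.039, 2.61 ± 0.039 and 1.78 ± 0.039 and NOP2B by 2.08 ± 0.078, 2.30 ± 0.078 and 1.27 ± 0.080 at 10, 4 and 0 °C.

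The remaining nucleolar factors are given by their log2 fold changes at 10, 4 and 0 °C. APUM24 (AT3G16810), a Puf-domain RNA-binding protein, rose by 2.50, 2.91 and 2.53, and APUM23 (AT1G72320), another Puf protein of rRNA processing, by 1.21, 1.58 and 1.39. EBP2 (AT3G22660) rose by 2.45, 2.64 and 2.16. PES (AT5G14520) and BOP1 (AT2G40360), which form a complex in rRNA processing, rose by 1.89, 2.38 and 2.06 and by 1.80, 1.90 and 1.40. SMO4 (AT2G40430), a relative of yeast Nop53, rose by 1.56, 1.72 and 1.56 and RID3 (AT3G49180), a WD-repeat protein, by 1.51, 1.50 and 1.11. PRH75 (AT5G62190), a DEAD-box helicase, rose by 1.11, 1.59 and 1.92, most at 0 °C. NUG2 (AT1G52980), a GTPase of large-subunit assembly, rose by 1.08, 1.31 and 1.04. Standard errors of these 9 lay between 0.025 and 0.15.

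SWA2 and MTR4 stood apart. SWA2 (AT1G72440), a relative of yeast Noc1, held 24.1, 23.3 and 21.4 CPM at 22 °C, 85.7, 86.6 and 85.0 at 10 °C, 53.3, 65.1 and 53.2 at 4 °C and 33.1, 25.02 and 22.5 at 0 °C. It rose by 1.90 ± 0.12 at 10 °C and 1.32 ± 0.12 at 4 °C, and at 0 °C its libraries overlapped those at 22 °C (0.23 ± 0.12, adjusted p = 0.115, edgeR). The value at 0 °C was -0.19 with total counts alone and -0.004 with upper quartile factors, and SWA2 was called without replicate 3 at 0 °C (0.36, adjusted p = 0.0187). MTR4 (AT1G59760), a helicase that hands pre-rRNA to the exosome, held 23.2, 21.7 and 14.2 CPM at 22 °C and 29.2, 26.6 and 28.7 at 10 °C. It stood at 28.3, 26.2 and 20.0 CPM at 4 °C and at 24.2, 21.6 and 28.6 at 0 °C. Its log2 fold changes were 0.52 ± 0.17 at 10 °C (adjusted p = 0.018), 0.34 ± 0.17 at 4 °C (0.0958) and 0.33 ± 0.17 at 0 °C (0.102, edgeR). The call at 10 °C ended without replicate 1 (0.0568) or 3 (0.0508) at 10 °C or replicate 3 at 22 °C (0.0588), and the value at 0 °C was -0.08 with total counts alone. Without replicate 1 at 22 °C it was called at 0 °C (0.0443) and at 4 °C (0.0416), and without replicate 3 at 4 °C it was called there too (0.0276, edgeR).

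The late large-subunit factors act after the particle leaves the nucleolus. REIL2 (AT2G24500) and REIL1 (AT4G31420) are relatives of yeast Rei1, which works in the cytoplasm. REIL2 held 25.4, 23.8 and 25.1 CPM at 22 °C, 59.8, 58.5 and 58.0 at 10 °C, 114, 111 and 112 at 4 °C and 144, 154 and 149 at 0 °C. It rose by 1.25 ± 0.037, 2.18 ± 0.038 and 2.59 ± 0.038 with no overlap between any groups (adjusted p = 2.05e-11, 7.14e-14 and 1.28e-14, edgeR). REIL2 overlaps a neighbour on the same strand by 173 bases. REIL1 held 32.0, 30.4 and 31.8 CPM at 22 °C, 31.7, 33.6 and 34.9 at 10 °C, 51.02, 48.3 and 48.7 at 4 °C and 52.5, 56.7 and 54.1 at 0 °C. It rose by 0.66 ± 0.048 at 4 °C and 0.80 ± 0.048 at 0 °C, and at 10 °C its libraries overlapped those at 22 °C (0.09 ± 0.048, adjusted p = 0.115, but 0.24 and 0.000521 with total counts alone, edgeR). LSG1-2 (AT1G08410), a GTPase that in yeast frees the export adaptor Nmd3, held 11.97, 13.1 and 13.5 CPM at 22 °C and 45.5, 49.9 and 47.7 at 10 °C. It stood at 63.0, 62.1 and 59.8 CPM at 4 °C and at 57.9, 54.9 and 54.6 at 0 °C, rises of 1.89 ± 0.055, 2.26 ± 0.055 and 2.11 ± 0.056. NMD3 (AT2G03820) itself rose by 1.25 ± 0.040, 2.00 ± 0.040 and 2.08 ± 0.040.

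The cold temperatures differed from one another, and how far depended on scaling. Between 0 and 10 °C, 9 factors were higher at 0 °C and 19 lower, against 33.9% and 36.6% of all genes, with a median of -0.28 that was -0.85 with total counts alone (5 higher and 29 lower). Between 4 and 10 °C, 19 were higher at 4 °C and 5 lower, against 29.7% and 30.3%, with a median of 0.18. That split was 8 and 16 and the median -0.12 with total counts alone, and 13 and 9 with upper quartile factors. Between 0 and 4 °C, 4 were higher at 0 °C and 27 lower, against 29.2% and 28.8%, with a median of -0.41 (1 and 31 with total counts alone). Total counts alone moved the median of all genes between 0 and 10 °C from -0.06 to -0.62.

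The roles parted between 0 and 10 °C. All 5 box C/D genes and all 3 H/ACA genes were lower at 0 than at 10 °C, from NOP58-1 (-1.52 ± 0.037) and FIB1 (-1.03 ± 0.035) to NOP58-2 (-0.22 ± 0.054). All 4 late factors were higher at 0 °C, REIL2 by 1.34 ± 0.035, NMD3 by 0.83 ± 0.038, REIL1 by 0.71 ± 0.048 and LSG1-2 by 0.23 ± 0.051, although LSG1-2 was at -0.34 with total counts alone and at 0.01 with upper quartile factors. SWA1 (0.96 ± 0.041) and PRH75 (0.81 ± 0.024) were also higher at 0 °C, and SWA2 was lower (-1.68 ± 0.12). Inside a library the difference between the mean log2 level of the 4 late factors and that of the 5 box C/D genes does not depend on scaling. The value was -0.57 ± 0.039 at 22 °C and, in the cold, -1.95 ± 0.031 at 10 °C, -1.15 ± 0.037 at 4 °C and -0.32 ± 0.016 among libraries from 0 °C (SD, n = 3). No libraries of different temperatures overlapped in it. These roles were compared with earlier results of the data known, so the difference is a description.

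**Figure D3:**
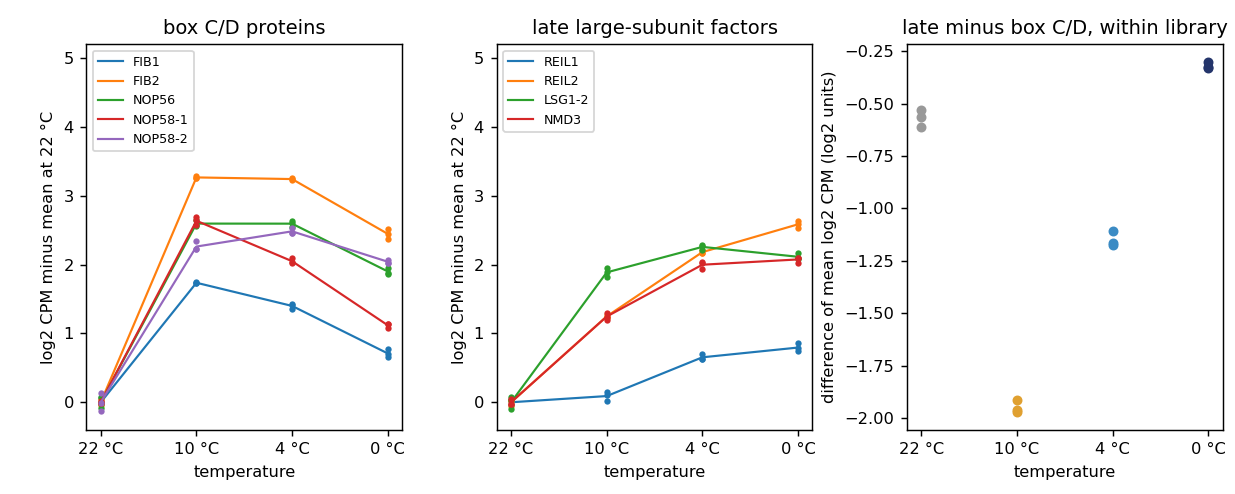
Left and middle, log2 CPM minus the mean at 22 °C for the 5 box C/D genes and the 4 late large-subunit genes, with a point per library and lines through the means. Right, the mean log2 CPM of the late genes minus that of the box C/D genes within each library. FIB1 and NOP58-1 stand highest at 10 °C, REIL2 stands highest at 0 °C, and the difference on the right runs from -1.95 at 10 °C to -0.32 at 0 °C.

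Paralogs of 6 pairs were compared as a log2 ratio of counts within each library, which does not depend on scaling. Every ratio differed among the 4 temperatures (exact permutation test over 369600 assignments of libraries, Benjamini-Hochberg over 6 pairs, adjusted p from 0.00013 to 0.00571). The ratio of REIL2 to REIL1 was -0.34 ± 0.0075 at 22 °C and in the cold 0.82 ± 0.091 at 10 °C, 1.19 ± 0.020 at 4 °C and, highest, 1.45 ± 0.0094 in the libraries from 0 °C (SD, n = 3), with no overlap between any temperatures. In counts, REIL2 went from 0.789 times REIL1 at 22 °C to 2.73 times at 0 °C. The ratio of FIB2 to FIB1 was -2.34 ± 0.016 at 22 °C and -0.81 ± 0.016, -0.50 ± 0.019 and -0.60 ± 0.023 at 10, 4 and 0 °C, so FIB2 went from 0.197 to 0.571, 0.709 and 0.658 times FIB1. Both pairs, like that of NOP58-1 and NOP58-2, had the smallest exact p those assignments can give (6.49e-05, or 0.00013 after adjustment, n = 3 per temperature).

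NOP58-1 relative to NOP58-2 was near equal at 22 °C (-0.05 ± 0.14), above it at 10 °C (0.33 ± 0.038) and below at 4 °C (-0.48 ± 0.064) and 0 °C (-0.97 ± 0.034). BRX1-1 relative to BRX1-2 was -2.00 ± 0.38 at 22 °C and in the cold -1.82 ± 0.014 at 10 °C, -1.33 ± 0.019 at 4 °C and -0.97 ± 0.070 at 0 °C, and the libraries at 10 °C overlapped those at 22 °C. NOP2A relative to NOP2B was 1.48 ± 0.034 at 22 °C and 2.06 ± 0.12, 1.79 ± 0.097 and 1.99 ± 0.13 at 10, 4 and 0 °C, above 22 °C throughout. NUC1 relative to NUC2 was 7.34 ± 0.28 at 22 °C and 8.08 ± 0.24 at 10 °C, while 4 °C (7.56 ± 0.13) and 0 °C (7.23 ± 0.17) overlapped 22 °C. The mRNAs of each pair shared at most 1.07% of their words of 31 bases, and those of the NOP2 and BRX1 pairs shared none.

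**Figure D4:**
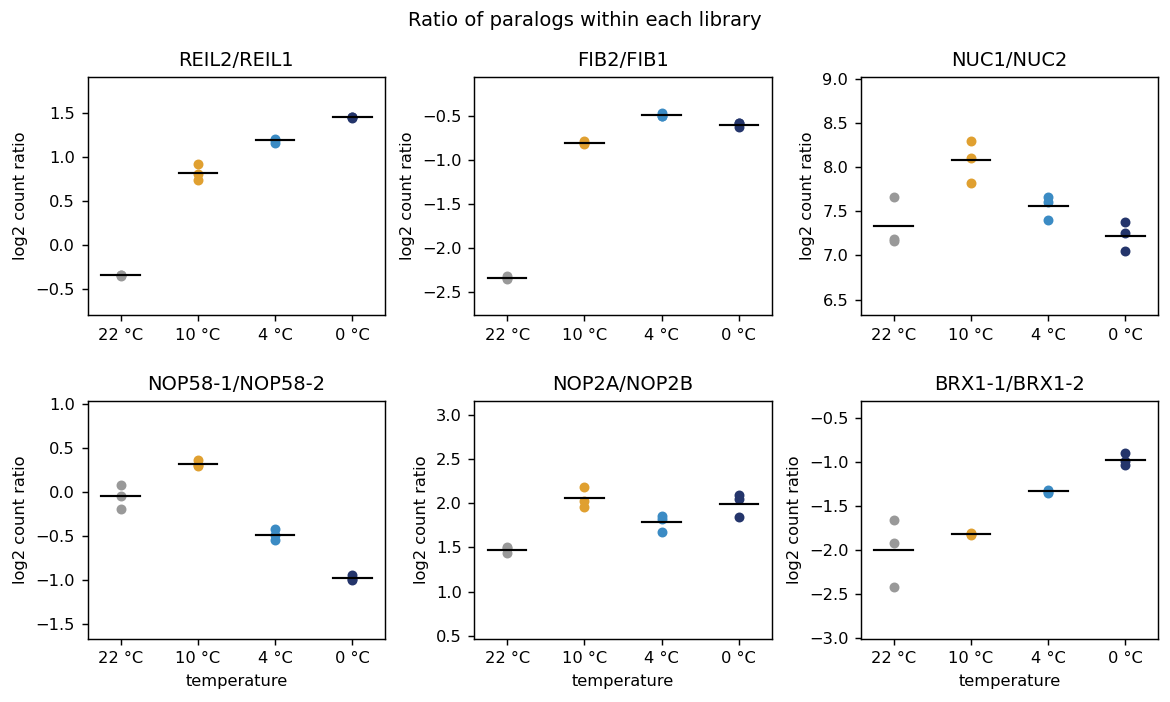
Log2 ratio of the counts of 6 paralog pairs in each library at 22, 10, 4 and 0 °C, with lines at the means. Every panel spans the same height. REIL2 to REIL1 and FIB2 to FIB1 rise from 22 °C to each cold temperature, and NOP58-1 to NOP58-2 falls from 10 to 0 °C.

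Of the 36 loci, 5 have more than 1 annotated transcript, and 4 of them entered the test of transcript usage (edgeR diffSpliceDGE, Simes, 4532 genes). At 0 °C, 2 were called, against a background of 14.8%, at 4 °C 1 against 12.9%, and at 10 °C 0 against 5.71%. The second transcript of NHP2 made up 2.59% ± 1.27 of the gene's counts at 22 °C and 4.48% ± 0.455 at 10 °C, then 8.41% ± 0.599 at 4 °C and 11.6% ± 1.06 in the 0 °C libraries (SD, n = 3). Its adjusted p was 2.34e-05 at 0 °C, 0.000298 at 4 °C and 0.302 at 10 °C (edgeR). NHP2's cold libraries at 0 and 4 °C lay above the 22 °C libraries, whose highest was 4.05%. The other call at 0 °C was APUM23 (adjusted p = 0.0215), whose main transcript held 45.5% ± 18.2 at 22 °C and 72.9% ± 3.93 at 0 °C, and its call ended with the replicate block, without any 1 of the 0 °C libraries, and without replicate 2 or 3 at 22 °C.

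The rest of the ribosome machinery was looked at in 3 lists, also chosen with earlier results of the data known. Of 28 tested other biogenesis factors, 28 rose at 0 °C, 28 at 4 °C and 27 at 10 °C, and none fell, with medians of 1.84, 2.21 and 1.99. Of all genes, 35.5%, 36.3% and 32.4% were called higher at 0, 4 and 10 °C, and 38.8%, 37.6% and 32.3% lower. RNA polymerase I's large subunit gene NRPA1 was not tested. NSN1 (AT3G07050), a nucleostemin GTPase, rose by 2.66 ± 0.040 at 10 °C, 3.15 ± 0.041 at 4 °C and 2.73 ± 0.041 at 0 °C. RBL (AT3G55510) at 3.06, ARPF2 (AT3G23620), an assembly factor of the 5S particle, at 2.98 and the processome protein MPP10 (AT5G66540) at 2.95 followed at 4 °C. Between 0 and 10 °C, 7 of the 28 were higher at 0 °C and 14 lower, against 33.9% and 36.6% of all genes, with a median of -0.23. Among the late genes of that list, LSG1-1 (AT2G27200) was higher at 0 than at 10 °C by 2.197 ± 0.072, SBDS (AT1G43860) by 1.06 ± 0.044 and EIF6A (AT3G55620) by 0.63 ± 0.039, while RLP24 (AT2G44860) was at -0.09 ± 0.058 (adjusted p = 0.196, edgeR). These 4 were picked for their role after values were seen. Genes of other roles in the list were also called higher at 0 than at 10 °C. They were DIM1A (AT2G47420) at 0.88 ± 0.050, NOB1 (AT5G41190) at 0.40 ± 0.042, RRP6L2 (AT5G35910) at 0.255 ± 0.079 and ARPF2 at 0.25 ± 0.050. LSG1-1 was the 1 factor not called at 10 °C (0.17, adjusted p = 0.0691, edgeR).

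Of 33 cytosolic ribosomal protein genes, 30 rose at 0 °C, 32 at 4 °C and 33 at 10 °C, with medians of 0.44, 0.69 and 1.08, and none fell. The shares of all genes called higher were 35.5%, 36.3% and 32.4%. With total counts alone 10 rose and 10 fell at 0 °C. Between 0 and 10 °C, 31 of 33 were lower at 0 °C, against 36.6% of all genes. Their largest changes at 4 °C were in RPS6A (2.17 ± 0.27), RPL10C (1.49 ± 0.050), RPL23AB (1.29 ± 0.050) and RPS5B (1.24 ± 0.035). Of 6 genes of growth signalling to the ribosome, 4 rose at each cold temperature, as did 20.4% of all genes. The 4 included EBP1 (1.71 at 4 °C), a regulator of organ growth, and the S6 kinase genes S6K1 (1.59) and S6K2 (1.16). RAPTOR1B, a partner of TOR, fell at 4 °C (-0.51 ± 0.093, adjusted p = 0.000305, edgeR), and none fell at 10 °C. At 0 °C it was at -0.22 ± 0.093 (adjusted p = 0.0492, edgeR), its libraries overlapped those at 22 °C, and the call ended with RLE factors, with no filter, with only the compared libraries, with DESeq2, and without any 1 of the 0 or 10 °C libraries, replicate 2 at 4 °C, or replicate 1 or 2 at 22 °C. The kinase gene TOR was not called at any cold temperature. It was at -0.39 ± 0.39 at 10 °C, -0.70 ± 0.40 at 4 °C and -0.15 ± 0.40 at 0 °C (adjusted p = 0.403, 0.135 and 0.743, edgeR).

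Marker lists of other cell states moved in other ways, and their part in the results was not tested. The summed level of 7 dividing-cell markers lay at 123 to 131 CPM at 22 °C (here without TMM scaling), 115 to 119 at 10 °C, 83.3 to 85.7 at 4 °C and 65.2 to 68.5 at 0 °C. On the TMM scale it lay at 114 to 124 CPM at 22 °C, and at 97.1 to 99.8, 85.4 to 87.9 and 82.0 to 84.6 at 10, 4 and 0 °C. At 0 °C, 4 of the 7 fell, KNOLLE rose (0.21 ± 0.053, adjusted p = 0.00367, edgeR) and 2 were not called, with a median of -0.31. Of all genes, 38.8% were called lower at 0 °C and 35.5% higher. HIS4, a histone gene, made up much of the sum, with a mean of 45.2 CPM at 22 °C and 19.3 at 0 °C on the TMM scale. The root, green-leaf and cold-response sums that follow are without TMM scaling. In the root and green-leaf sums the order of the cold temperatures depends on that scaling. The 7 root markers summed to 514 to 543 CPM at 22 °C, 235 to 244 at 10 °C, 213 to 231 at 4 °C and 330 to 341 at 0 °C. MLP328 made up much of the root sum, with means of 423, 147.5 and 372 CPM at 22, 10 and 0 °C on the TMM scale. At 10 °C, 4 of the 7 fell, EXPA18 (0.72 ± 0.12) and COBL9 (0.56 ± 0.15) rose and 1 was not called, against 32.3% of all genes lower and 32.4% higher. At 4 and 0 °C none rose, and 4 and 6 fell, against 37.6% and 38.8% of all genes called lower. The 5 green-leaf markers summed to 33530 to 35090 CPM at 22 °C, and to 23050 to 23920, 17600 to 18920 and 21630 to 23000 at 10, 4 and 0 °C. With TMM scaling their median log2 fold change was -1.70, -1.04 and -0.295 at 10, 4 and 0 °C. RBCS1A made up much of the green-leaf sum and was not called at 10 or 0 °C. Its means on the TMM scale were 14330, 14710, 11850 and 15020 CPM at 22, 10, 4 and 0 °C. The 5 cold-response markers summed to 160 to 179 CPM at 22 °C, 2984 to 3070 at 10 °C, 20590 to 20900 at 4 °C and 16600 to 17080 at 0 °C. With TMM scaling, 3 of these 5 were higher at 0 than at 4 °C, 1 was lower and 1 was not called (median 0.12), against 29.2% of all genes higher and 28.8% lower. None of these markers was at 0 in a whole group.

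**Figure D5:**
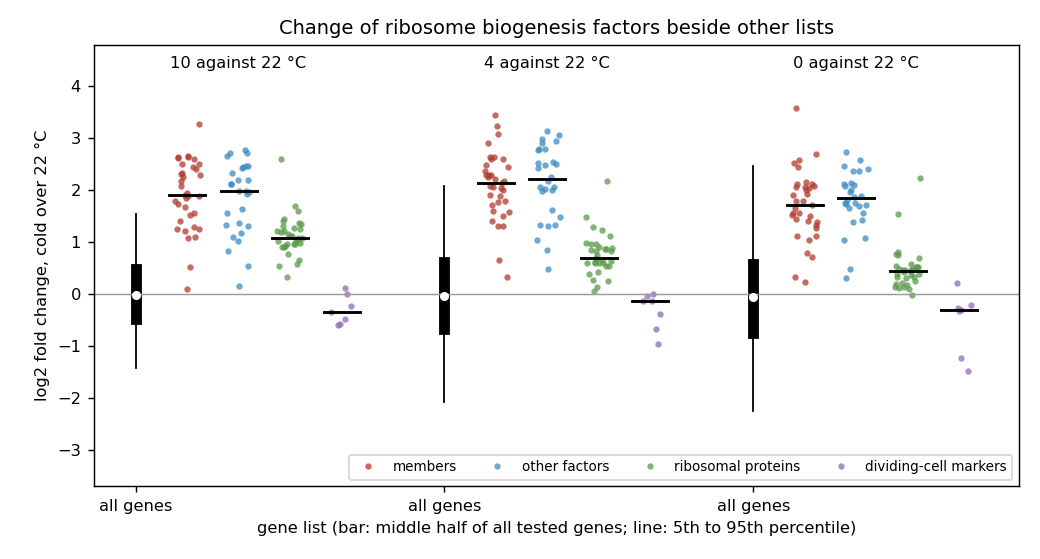
Log2 fold change of each cold temperature over 22 °C for 35 factors, 28 other biogenesis factors, 33 ribosomal protein genes and 7 dividing-cell markers, a point per gene and a line at the median. The black bar spans the 25th to 75th percentile of all 21293 tested genes and the thin line their 5th to 95th percentile. Both lists of biogenesis factors lie above most of the other genes at each temperature, and the ribosomal protein genes lie between them and zero.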

How the data were processed

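Total RNA of whole plantlets was sequenced as paired-end reads, per the labels' protocols. The submitters' processing notes list HISAT2 2.2.0, kallisto 0.42.4, edgeR and TAIR10, without their roles. The authors deposited estimated counts of 56132 transcripts and the same as CPM, which recomputation from the deposited counts matched within 5.46e-11. Only the estimated counts were used further. Of the transcripts, 41623 carry an annotated locus and 14509, with 9.79% to 12.2% of the counts, were assembled without one. Columns of samples not in the series (6 per table) were not used.

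Annotated transcripts were added up by locus, rounded to whole numbers and filtered with filterByExpr, which left 21293 genes. They were fitted with edgeR 4.0.16 (R 4.3.3; TMM, glmQLFit, glmQLFTest) over all 12 libraries with 1 mean per temperature and no block. The common biological coefficient of variation was 0.1. Approximate standard errors were obtained by dividing each log2 fold change by the root of F. Calls were made per comparison at an adjusted p under 0.05 (Benjamini-Hochberg). Paralog ratios used a pseudocount of 0.5 counts. Transcript usage was tested with diffSpliceDGE. The chain was tested on simulated data. Pairs of libraries in a group differed by more than counting noise (chi-square per degree of freedom 4.22 to 11.1). The 36 members were found in the TAIR10.1 annotation, from which promoters were read; the deposited files hold no coordinates.

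The members and lists were chosen with earlier results of these data known. Values in every library are printed for the 6 paralog pairs and for the members with the largest and smallest change at 4 °C in each role. SWA1 and SWA2 were added after their values were seen. Of other lists, up to 4 genes with the largest change at 4 °C are named. Alternatives tried were other scaling factors, filters, DESeq2 1.42.0, only the compared libraries, a replicate block and leaving out each library.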

Additional observations from a re-analysis of the deposited data

How the results depend on the processing

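Counts of the 36 factors called higher than at 22 °C stayed within 1.5 times of the main count under every alternative run, with 33 to 34 called at 0 °C, 34 to 35 at 4 °C and 33 to 35 at 10 °C when single libraries were left out. Scaling moved the comparisons between cold temperatures, and the median turned its sign for 4 against 10 °C alone. With total counts alone, the members' median was 1.33 at 0 °C, 2.03 at 4 °C and 2.08 at 10 °C against 22 °C, -0.85 for 0 against 10 °C (5 higher and 29 lower), -0.12 for 4 against 10 °C (8 and 16, a reversed sign) and -0.69 for 0 against 4 °C (1 higher). With upper quartile factors it was 1.52 at 0 °C, 2.03 at 4 °C, -0.49 for 0 against 10 °C (5 higher), 0.055 for 4 against 10 °C (9 lower) and -0.51 for 0 against 4 °C (2 higher). A mean of at least 5 CPM gave 1.59, 2.11, -0.35 and -0.45 for 0 against 22, 4 against 22, 0 against 10 and 0 against 4 °C (2 higher). RLE factors gave 2.18 and DESeq2 2.18 for 4 against 22 °C, and -0.39 and -0.40 for 0 against 4 °C. Totals and TMM over all loci gave 2.13 for 4 against 22 °C. RRP5 at its lower bound, chosen after seeing the data, gave 1.68 for 0 against 22 °C. Leaving out single libraries gave 2.15 to 2.21 for 4 against 22 °C, 1.91 to 1.97 for 10 against 22 °C and -0.44 to -0.40 for 0 against 4 °C. The cause was not tested.

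Single values turned sign for SWA2 at 0 °C (-0.19 with total counts alone, -0.004 with upper quartile factors), and MTR4 at 0 °C (-0.083 with total counts alone). For 0 against 10 °C, 4 of 28 called factors turned with total counts alone, NUC2 (-0.12), PES (-0.40), LSG1-2 (-0.34) and RH10 (-0.33), and PES (-0.046) with upper quartile factors. For 4 against 10 °C 5 of 24 turned with total counts alone, among them NOP58-2 (-0.069), and for 0 against 4 °C 2 of 31 did, while none turned there with upper quartile factors. The pairs of cold temperatures were run under these scalings for all 36 after seeing the data. Ribosomal proteins at 0 °C gave 10 higher and 10 lower with total counts alone and 2 lower with upper quartile factors. The growth-signalling genes called lower (RAPTOR1B alone at 0 °C) ranged from 0 to 1 at 0 °C, from 1 to 2 at 4 °C and from 0 to 1 at 10 °C when single libraries were left out. At 0 °C the number was 0 with RLE factors, without a filter, with only the compared libraries and with DESeq2. At 10 °C it was 1 with upper quartile factors, with a mean of 5 CPM or more, with totals over all loci and with the replicate block. Members with changed transcript usage at 0 °C numbered 1 with the replicate block and 1 to 2 when single libraries were left out.

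Of 18 same-number pairs of samples, 1 correlated above 0.1 in its deviations from the group means (from -0.09 to 0.24). With 3 replicates per group this cannot exclude that same-number pools shared a run. The replicate block gave medians of 1.75, 2.17 and 1.93 against 22 °C and changed no paralog call. RRP5 and NUC2 had the lowest mean levels of the factors at each temperature. RRP5 held 43, 71 and 0 counts at 10 °C, in libraries of 33964815, 31765865 and 30324162 annotated counts. Whether depth limits RRP5 and NUC2 with groups of 3 was not tested.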
